A study of Mus musculus with 6 samples.

Results

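Interleukin 1, interleukin 6 and the prostaglandin synthases were followed in cells sorted from adult mouse ovaries. The set was 10 genes: the ligands Il1a, Il1b and Il6, the interleukin 1 receptor antagonist Il1rn, the receptor chains Il1r1, Il1rap, Il6ra and Il6st, and the prostaglandin synthases Ptgs1 and Ptgs2. Members were chosen by gene symbol, with earlier values of the same comparison in view, and every probe set (the group of probes that reports 1 transcript) with a single one of these symbols was taken. That gave 21 of 45037 probe sets without controls and 9 of 18193 genes. No probe set named Ptgs1 in the annotation used here, so it was not analysed here. Because the values of this comparison helped to pick the genes, their changes are given as a description, without a p-value of their own.

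All 6 samples came from female Gli1-CreERT2; Rosa-LSL-tdTomato mice of strain 129S6/SvEvTac aged 2 months. Tamoxifen turns on the Cre recombinase only in cells that express Gli1, a transcription factor of hedgehog signalling, and those cells and their descendants then carry the red tdTomato label by which they were sorted. The 3 mesonephros-derived samples (Mesonephros_theca) were labelled before birth, with doses at E12.5, at E14.5 and again at E16.5. The 3 ovary-derived samples (Ovary_theca) were labelled on postnatal days 1 to 3, by dosing the nursing dam. Origin and time of tamoxifen changed together, so their effects cannot be told apart, and recombination marks only the cells that had Gli1 at dosing. The labels do not say whether samples came from separate animals, so the spread measured here may be technical.

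Interleukin 1 alpha and beta both act through the receptor Il1r1, which signals once it has recruited the accessory chain Il1rap, and Il1rn occupies the receptor without signalling. Interleukin 6 binds Il6ra, and the pair engages Il6st (gp130), the signalling chain shared by a family of cytokines. Ptgs1 and the inducible Ptgs2 turn arachidonic acid into prostaglandin H2, from which separate synthases make prostaglandin E2, prostacyclin and thromboxane. In the ovary these signals are known for their part in ovulation, when follicle wall and resident immune cells make them.

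Values are linear signals, scaled by the authors to a common level, and changes are mesonephros-derived minus ovary-derived on the scale log2(signal + 16), which understates the change of dim genes. A floor of 99.4, the 40th percentile of all probe sets, served as the limit below which a signal is not read as a level. The labelled cell type was checked against its markers. Cyp17a1, the androgen-making enzyme of theca cells, stood at 3346, 10577 and 8689 in mesonephros-derived replicates 1, 2 and 3 and at 1413, 1304 and 619 in the ovary-derived ones. Myh11, the smooth muscle myosin, stood at 12874, 10949 and 11814 against 2577, 3437 and 3461, and Gli1 itself at 133, 579 and 415 against 703, 559.6 and 487. Of 12 tested theca and Gli1-lineage markers, 12 were at or above the floor on each array. So were all 5 tested granulosa markers, among them Foxl2 at 3434 to 5330, while Amh, Fshr, Nr5a2 and Fst were below it on average. On each ovary-derived array the 12 tested endothelial markers passed it too. Passing the floor therefore does not show that the sorted cells were pure theca. Over all probe sets, ovary-derived arrays correlated with each other at 0.963 to 0.973 and mesonephros-derived ones at 0.844 to 0.896, while arrays of different groups correlated at 0.871 to 0.950, so the mesonephros-derived arrays stood apart from each other. Poly-A spikes, control transcripts that in the standard protocol go in at equal amounts before amplification, had a geometric mean over 27 probe sets of 12.0, 12.2 and 2.32 on mesonephros-derived arrays 1 to 3, relative to the average ovary-derived array, and of 0.668 to 1.51 on the ovary-derived arrays. Hybridisation spikes, controls added after amplification, stood at 3.38, 2.73 and 1.38 against 0.827 to 1.22 over 18 probe sets. Their bearing on which signals passed the floor was not tested. For Gapdh, the signal of the 3′ over the 5′ probe set, which climbs as RNA breaks, was 5.29, 3.48 and 2.63 against 1.94 to 2.86, while the same ratio for Actb was 0.887 to 0.929 against 0.920 to 1.01, lowest on mesonephros-derived array 1. The part of RNA integrity in the results below was not tested. A fit with the poly-A spikes as a covariate gave the values printed beside each named member or pathway gene that it moved by over 1.5 times. Each mesonephros-derived array had higher poly-A spikes than any ovary-derived one, so group and spike level are largely confounded in that fit. Its errors were wide, with an SE of 0.87 for Il1b and 1.52 for Il6, and its values are not read as corrected changes.

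The stretch of 250 bases upstream of the transcription start is shown for the member with the largest change, Il1b, and for Il6 and Ptgs2. Il6 and Ptgs2 passed the floor on mesonephros-derived replicate 1 alone, as did Il1rn, whose stretches are not shown. The sequences are RefSeq's for GRCm38.p6, read 5′ to 3′ on the strand of the gene. Capitals mark matches on either strand to a TATA core (TATAAA), the C/EBP core (TTNCNNAA), an AP-1 site (TGANTCA), the CRE core (TGACG) or the kappaB consensus, the element read by NF-kappaB. The Il1b stretch is chr2:129371140-129371389 on the minus strand, that of Il6 chr5:30012864-30013113 and that of Ptgs2 chr1:150099781-150100030, both on the plus strand.
Il1b: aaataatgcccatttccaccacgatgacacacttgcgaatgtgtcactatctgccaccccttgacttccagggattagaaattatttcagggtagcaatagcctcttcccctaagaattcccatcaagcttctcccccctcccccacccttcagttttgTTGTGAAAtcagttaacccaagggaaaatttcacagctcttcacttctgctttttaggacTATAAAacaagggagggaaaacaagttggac
Il6: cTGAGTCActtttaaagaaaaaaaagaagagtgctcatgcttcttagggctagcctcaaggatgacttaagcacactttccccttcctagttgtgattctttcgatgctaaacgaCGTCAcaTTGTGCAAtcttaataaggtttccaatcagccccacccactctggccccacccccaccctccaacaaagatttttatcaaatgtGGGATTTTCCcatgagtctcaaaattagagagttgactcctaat
Ptgs2: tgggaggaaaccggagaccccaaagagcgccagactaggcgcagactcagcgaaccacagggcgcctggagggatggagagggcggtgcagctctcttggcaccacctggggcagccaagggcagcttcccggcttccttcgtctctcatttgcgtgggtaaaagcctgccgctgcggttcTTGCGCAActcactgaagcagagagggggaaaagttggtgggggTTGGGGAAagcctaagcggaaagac

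The kappaB consensus had 1 match in the Il6 stretch, 44 bases upstream, and the CRE core 1 match 135 bases upstream. A C/EBP core stood 91 bases upstream of Il1b, 128 bases upstream of Il6 and 69 and 25 bases upstream of Ptgs2. The TATA core lay 31 bases upstream of Il1b, and an AP-1 site 249 bases upstream of Il6. Of 32851 upstream stretches of the same length, 36.8% held the C/EBP core, 17.8% the CRE core, 12.4% the TATA core, 6.75% the AP-1 site and 3.9% the kappaB consensus. Such matches are a description of these letters, and no binding was measured.

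Among the ligands, Il1b separated the groups. It read 43.0, 15.9 and 38.7 in mesonephros-derived replicates 1, 2 and 3 and 429.5, 384 and 289 in the ovary-derived ones (32.6 ± 14.6 against 368 ± 71.7, SD, n = 3 each). The floor fell between the groups, with all 3 ovary-derived arrays above it and all 3 of the others under it, so the change is a bound of at least 3.28-fold lower in mesonephros-derived cells. The measured difference on the log2 scale was −3.01 ± 0.49 (SE). Leaving out any single array moved it between −3.18 and −2.74, and it was −2.45 once the poly-A spikes entered the model. With a pseudocount of 1 in place of 16 it was −3.56, and with 64 it was −2.16. Il1b passed the floor through the ovary-derived arrays alone, and its mean level over all arrays, 117, was the nearest to the floor among the members above it, with Ptgs2 at 57.9 the nearest below.

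**Figure D1:**
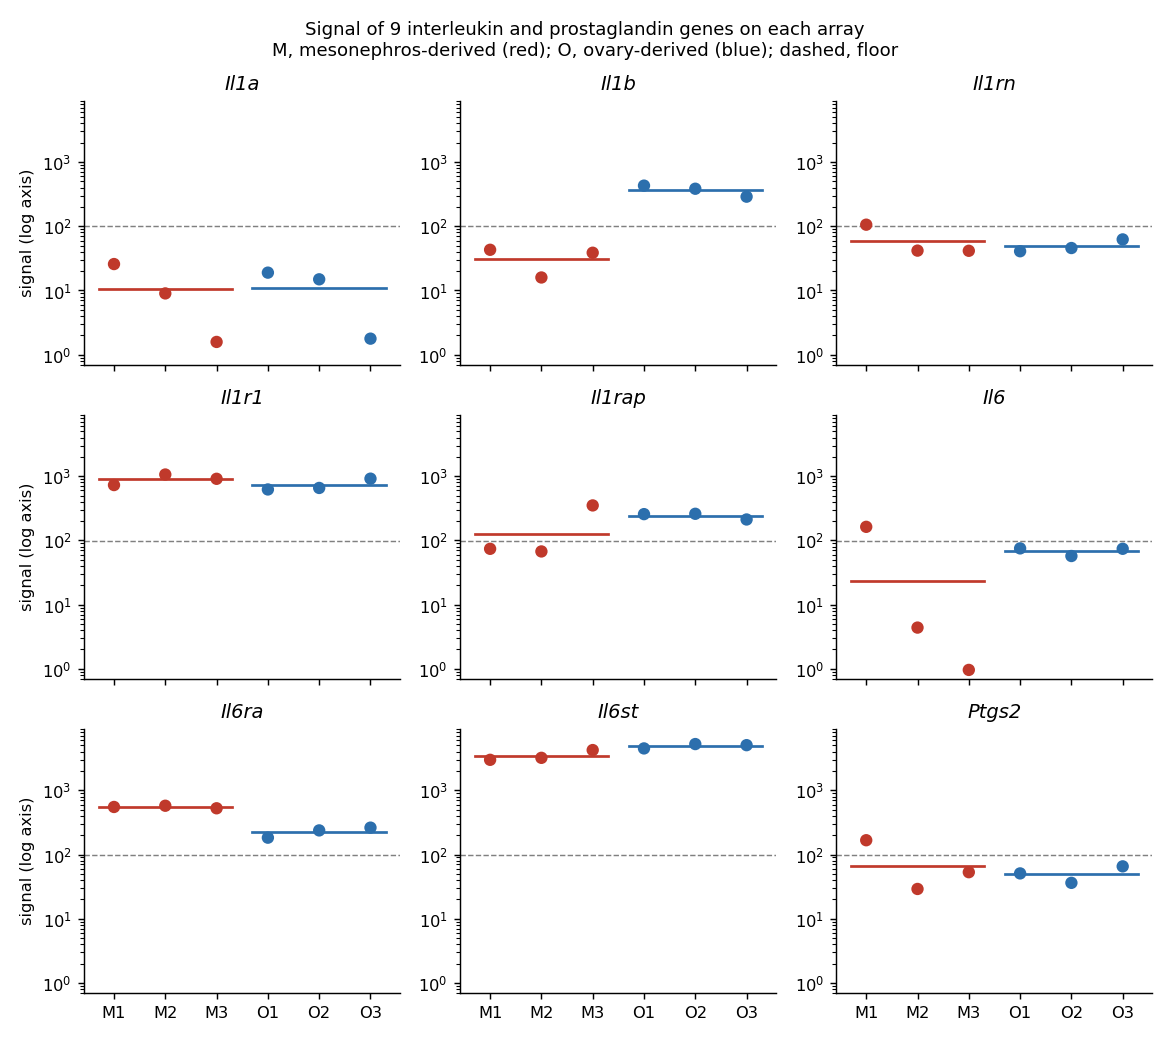
Signal of the 9 genes on each array (log axis), for the probe set with the highest mean of each gene; red points are mesonephros-derived arrays (M1 to M3), blue points ovary-derived arrays (O1 to O3), bars are group means taken on the log2(signal + 16) scale and the dashed line is the floor of 99.4. Il1b lies below the floor on all 3 red arrays and above it on all 3 blue ones, and the Il6ra probe set shown lies at 526 to 576 on the red arrays.

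Macrophages and monocytes are a major source of Il1b, so their markers were read on the same arrays. As log2 distance from the mean of the ovary-derived arrays, which differed among themselves by an SD of 0.35, the 13 tested macrophage and monocyte markers averaged −2.58, 0.61 and −0.78 on mesonephros-derived arrays 1 to 3. Their summed signal ran from 1696 to 16175 in mesonephros-derived and from 6612 to 10407 in ovary-derived samples. The markers did not go one way on the array with the highest sum, replicate 2. There 7 of the 13 lay above every ovary-derived array, among them C1qb, a complement chain of tissue macrophages, at 5589 and Lyz2, lysozyme, at 3024, and 4 lay below every ovary-derived array, among them Csf1r and the mannose receptor Mrc1. On replicate 1, 0 lay above and 12 below, and on replicate 3, 0 above and 9 below. The share of all genes outside the ovary-derived range on a single array was not taken. These counts, and that of the class II markers below, therefore have no background. Il1b was under the floor on each of these arrays, so its order among them is not read. The part of macrophage content in the Il1b difference was not tested. Of its 13 markers 12 were lower and 1 was higher in mesonephros-derived cells, with 0 past an adjusted p of 0.05 in limma, 3 at an unadjusted p of 0.05 (Csf1r, Mrc1 and Aif1, lower), and 4 lower without overlap. Among all genes tested, 56.5% were lower, 7.22% were lower at an unadjusted p of 0.05 in limma and 12.6% were lower without overlap. Csf1r, the receptor for the macrophage growth factor, stood at 2.81, 615 and 461 against 1300.2, 1583 and 1059.9. Dendritic and class II markers, 4 tested, averaged −3.34, 1.02 and −0.59, with Cd74, the invariant chain, at 8.36, 4427 and 1060.2. On replicate 1 all 4 lay below every ovary-derived array, but H2-Ab1 at 291 and H2-Eb1 at 463 were above the floor there and H2-Aa at 10.7 was not. All 7 neutrophil markers with a probe set were below the floor on average, as were the monocyte markers Cd14 and Itgam. In such sorted bulk samples, fewer cells of a type and less RNA per cell cannot be told apart.

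**Figure D2:**
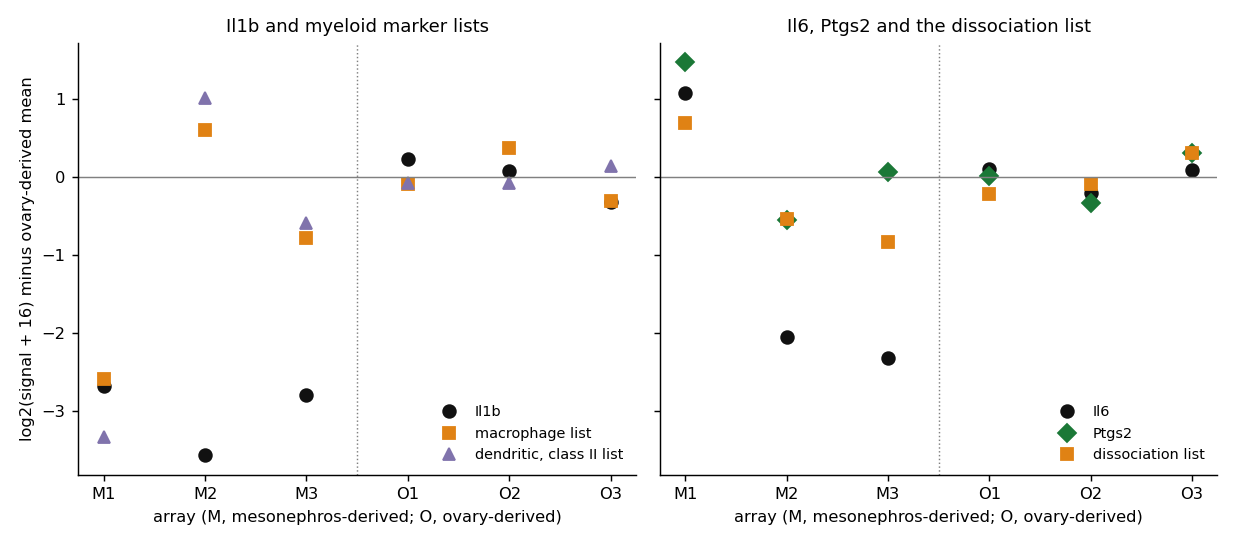
Distance of each array from the ovary-derived mean in log2 units, for Il1b with the mean of the macrophage and of the dendritic and class II marker lists (left) and for Il6 and Ptgs2 with the mean of the dissociation and immediate early list (right); M1 to M3 are mesonephros-derived and O1 to O3 ovary-derived arrays. The macrophage list runs from −2.58 on M1 to 0.61 on M2, and Il1b is under the floor on M1, M2 and M3. On M1 Il6 is at 1.08 and Ptgs2 at 1.48 while the dissociation list is at 0.70.

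The other ligands gave no level in most samples. Il6 read 163, 4.39 and 0.962 in the mesonephros-derived replicates and 75.1, 57.1 and 74.1 in the ovary-derived ones. It thus passed the floor on mesonephros-derived replicate 1 alone, which also held the highest of the 6 values, while the other 5 values are not read as levels. The change of −1.09 ± 0.82 (SE) averages these, and it was −2.18 without replicate 1, −2.53 with a pseudocount of 1 and −2.96 with the poly-A spike covariate. Without mesonephros-derived replicate 2 it was −0.62, and without replicate 3 −0.48. Il1a was below the floor on all 6 arrays, at 1.58 to 25.8 in mesonephros-derived and 1.78 to 19.0 in ovary-derived samples, with a change of −0.02 ± 0.40, or −0.50 with that covariate.

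Il1rn, the antagonist, stood at 106, 41.8 and 41.5 against 40.9, 45.8 and 62.4 on its probe set with the highest mean, again past the floor on mesonephros-derived replicate 1 only. That probe set gave a change of 0.18 ± 0.51 (SE), and the other probe sets of the gene gave −0.60 ± 0.53 and −0.80 ± 0.42 without reaching the floor on any array. The sign for Il1rn therefore differed between probe sets, and it also turned to −0.18 without replicate 1 and to −0.55 with the poly-A spike covariate.

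Among the receptor chains, Il1r1, which carries the interleukin 1 signal, read well above the floor in both groups, at 728, 1062 and 911 against 622, 656 and 916. The groups overlapped, with a change of 0.30 ± 0.27 (SE), or 0.12 with the poly-A spike covariate. Its other probe set read at most 9.47 on any array. The receptor was thus read in both groups whereas its ligand Il1b passed the floor in the ovary-derived arrays only.

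Il1rap, the accessory chain, had 5 probe sets that did not tell one story. The brightest read 74.0, 67.3 and 351 in mesonephros-derived replicates 1, 2 and 3 against 257, 259.7 and 212, a change of −0.88 ± 0.60 (SE) in which replicate 3 lay above every ovary-derived array. It was −1.57 without replicate 3 and turned to 1.34 with the poly-A spike covariate. The next read 55.1, 325 and 112 against 190.2, 152 and 103, so that here replicate 2 was the high one. The 3 remaining probe sets were below the floor on all arrays, with changes from −1.22 to 0.33.

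Il6ra, the ligand-binding chain for interleukin 6, was the member with the clearest difference in the other direction. It read 551, 576 and 526 in the mesonephros-derived replicates and 183, 238 and 263 in the ovary-derived ones (551 ± 25.1 against 228 ± 40.6, SD, n = 3 each). No mesonephros-derived array reached down to the ovary-derived range, and the change was 1.23 ± 0.32 (SE), or 2.35-fold on the log2(signal + 16) scale. The log2 SD among mesonephros-derived arrays was 0.06 on this probe set, against 1.20 for the brightest of Il1rap on the same arrays. A second Il6ra probe set read 9.27, 521 and 276 against 52.0, 127 and 139, so it was higher in replicates 2 and 3 and under the floor in replicate 1, with a change of 0.46 ± 1.00. Its log2 SD among mesonephros-derived arrays was 2.33, and the mean of both probe sets gave a change of 0.85 ± 0.56 (SE). Macrophages also express Il6ra. Against their marker list at −2.58, 0.61 and −0.78 in replicates 1, 2 and 3, the main Il6ra probe set stood at 1.23, 1.29 and 1.17 and the second at −2.18, 2.23 and 1.35. The part of macrophages in the Il6ra difference was not tested.

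Il6st, the shared signalling chain, was above the floor on every array with all 4 of its probe sets, and each of the 4 had a change below 0. On the main probe set the signal was 2988, 3209 and 4239 against 4498, 5258 and 5055 (3479 ± 668 against 4937 ± 393, SD, n = 3 each), with no overlap and a change of −0.52 ± 0.20 (SE). The others gave −0.76 ± 0.29, also without overlap, −0.80 ± 0.40 and −0.20 ± 0.23. Il6ra and Il6st, which work as one receptor, thus lay on opposite sides of 0, each with separate groups on its main probe set. With the poly-A spike covariate Il6st was at −0.11 and Il6ra at 0.96. Endothelial cells express Il6st too, and their markers averaged −1.86, 0.02 and −1.22 over 12 tested genes in mesonephros-derived replicates 1, 2 and 3, where the main probe set of Il6st stood at −0.72, −0.62 and −0.22. Their part in the result was not tested.

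**Figure D3:**
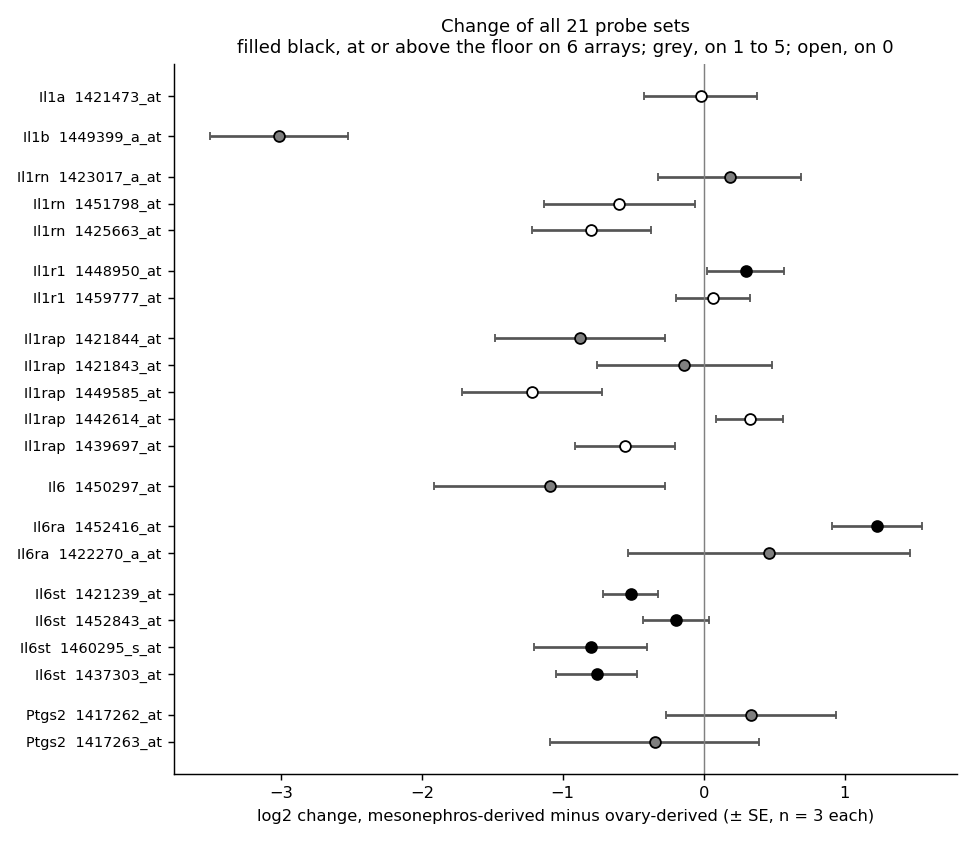
Log2 change of all 21 probe sets, mesonephros-derived minus ovary-derived, as points with the SE of the limma fit (n = 3 arrays each); black points were at or above the floor on all 6 arrays, grey points on 1 to 5 and open points on 0. Il1b at −3.01 and Il6ra at 1.23 lie farthest from 0 on either side, the 4 probe sets of Il6st all lie below 0, and those of Il1rn, Il1rap and Ptgs2 fall on both sides.

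Ptgs2, the inducible prostaglandin synthase, read 167, 29.1 and 53.1 in mesonephros-derived replicates 1, 2 and 3 and 50.9, 36.2 and 65.5 in the ovary-derived ones. Its second probe set gave 132, 6.11 and 1.07 against 20.5, 37.1 and 43.5. Both passed the floor on mesonephros-derived replicate 1 and on no other array. The changes were 0.33 ± 0.60 and −0.35 ± 0.74 (SE), and the first turned to −0.24 when replicate 1 was left out and to −0.22 when the spikes were a covariate. Of the 4 members below the floor on average, 3 (Il1rn, Il6 and Ptgs2) thus reached it on that array alone, which was the case for 5.69% of the 6490 genes below the floor on average. The same pattern on replicate 2 alone was met in 8.6% of these genes and on replicate 3 alone in 1.65%.

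Tissue dissociation can switch on Il6 and also Ptgs2, an immediate early gene. As log2 distance from the ovary-derived mean, the 23 tested genes of the dissociation and immediate early list averaged 0.70, −0.53 and −0.83 on mesonephros-derived arrays 1 to 3. On the ovary-derived arrays these genes averaged −0.22 to 0.31. Their summed signal ran from 73889.9 to 237267 in mesonephros-derived and from 97914 to 146056 in ovary-derived samples. On mesonephros-derived array 1, 14 of the 23 lay above every ovary-derived array and 3 below, among the latter the early response gene Ier2. The share of all genes outside the ovary-derived range on that array was not taken, so the counts have no background. Over all genes tested, the log2 SD around the group mean was 0.67 on that array and 0.21 to 0.26 on the ovary-derived ones. Over the groups, 16 of the 23 were lower and 7 higher in mesonephros-derived cells, where 56.5% of all genes tested were lower. Egr1, an immediate early factor, read 23839, 15746 and 11749 against 11540, 13871 and 18352, and Hspa1b, a heat shock protein, 42402, 20442 and 6532 against 3758, 5385 and 11509. Both belong to the 7 higher genes. Fos, one of the 16 lower, read 18124, 6557 and 5741 against 10554, 11814 and 14930.5. Replicate 1 thus held the highest values of Il6, of Ptgs2 and of this list, as well as the highest Gapdh and the lowest Actb 3′ to 5′ ratio. Their part in the result was not tested.

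Across the comparison, limma called 5 of 11703 genes at an adjusted p of 0.05, a background of 0.0427%, and 0 of the 5 members above the floor were among them. Of these 5, 2 were higher and 3 lower, where 43.5% of all genes tested were higher and 56.5% lower. At an unadjusted p of 0.05 there were 3 members, Il6ra higher and Il1b and Il6st lower, against 13.7% of all genes tested, made up of 6.46% higher and 7.22% lower. The same 3 had groups without overlap, against 22.2% of all genes tested, of which 9.56% lay higher and 12.6% lower. By probe set, 6 of the 21 had groups without overlap, 2 higher and 4 lower, where 18.8% of all probe sets had, 8.22% higher and 10.6% lower. Nothing is read from these counts, since the comparison was in view when the genes were picked. The count over all genes was 46 without mesonephros-derived replicate 1.

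The remaining genes of the pathways were taken from 4 lists of 97 genes, of which 57 were tested. In all, 25 were higher and 32 lower in mesonephros-derived cells, 0 passed an adjusted p of 0.05 in limma in either direction, and 8 passed an unadjusted p of 0.05 (5 higher and 3 lower), or 14.0% against 13.7% of all genes tested. Groups did not overlap for 8 of them, also 14.0%, against 22.2% of all genes tested. Their median change was −0.035, and that of all genes tested −0.08. The share of pathway genes past the unadjusted threshold was thus near the background. Without mesonephros-derived replicate 1, 1 pathway gene, Socs3, passed the adjusted threshold as lower.

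**Figure D4:**
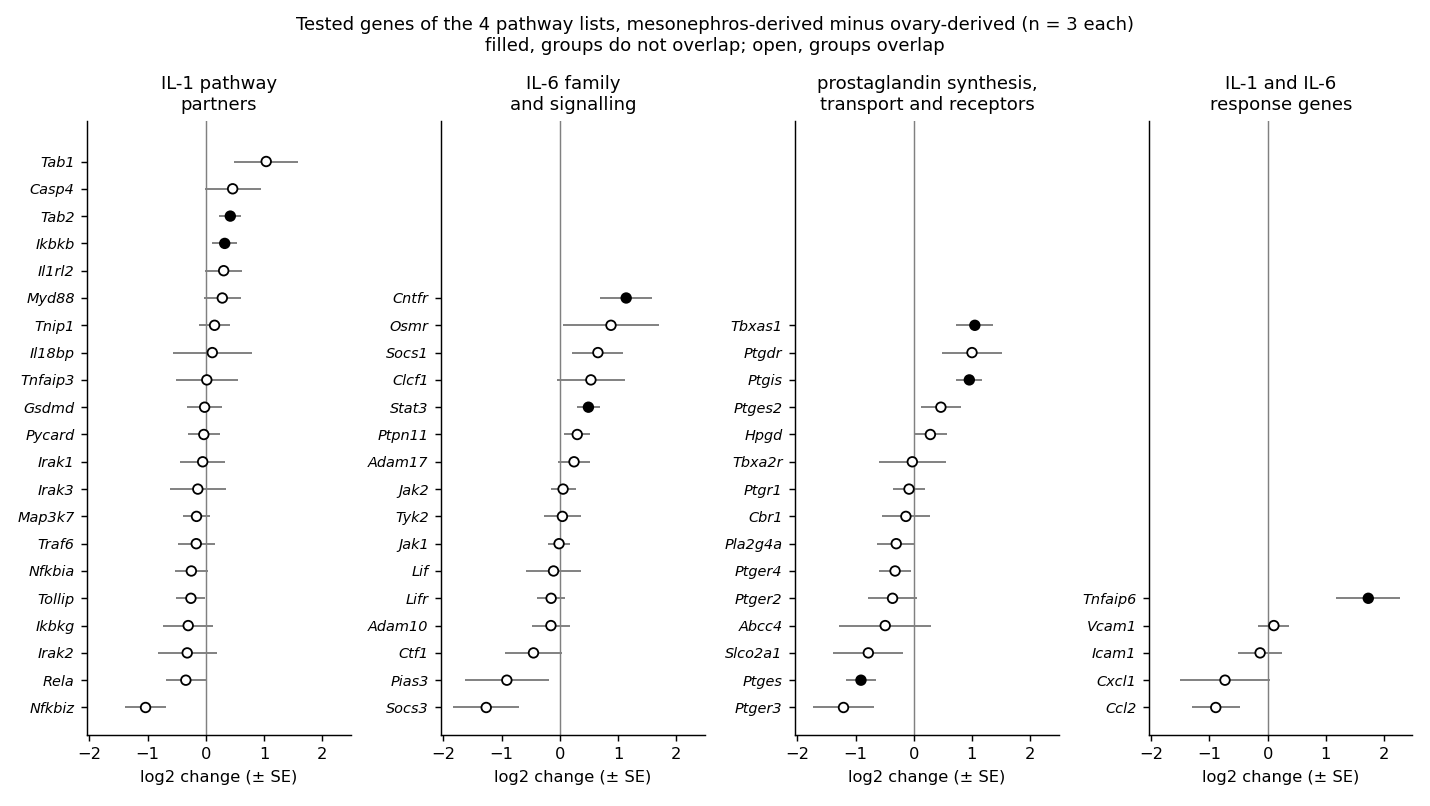
Log2 change with SE of the 57 tested genes in the 4 pathway lists, mesonephros-derived minus ovary-derived (n = 3 arrays each), ordered by change within each list; filled points are genes whose groups do not overlap, open points genes whose groups do. Ptgis and Tbxas1 lie near 1 and Ptges near −0.9 with separate groups, whereas most interleukin 1 partners lie near 0.

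In the prostaglandin list, 5 of 15 tested genes were higher and 10 lower, with 2 higher and 2 lower at an unadjusted p of 0.05 and a median of −0.13. That is 26.7%, against 13.7% of all genes tested. Groups did not overlap for 3 of the 15, or 20%, against 22.2% of all genes tested. The 4 genes given with values were picked for the smallest p in the list. Ptgis, which makes prostacyclin, a relaxant of vessels, read 2813, 2277 and 2739 in mesonephros-derived and 1608, 1371 and 1072 in ovary-derived samples. Its groups were apart, with a change of 0.96 ± 0.22 (SE, limma adjusted p = 0.212). Tbxas1, which makes thromboxane, read 731, 715 and 462 against 240.2, 335 and 311, also apart, at 1.05 ± 0.32 (limma adjusted p = 0.265) and at 0.32 with the poly-A spike covariate. Ptges, the inducible prostaglandin E synthase, went the other way without overlap, at 692, 1146 and 1155 against 1738, 1719 and 2071, a change of −0.91 ± 0.26 (limma adjusted p = 0.254), with its other probe sets at −0.89 and −0.29. Ptger3, a receptor for prostaglandin E2, stood at −1.21 ± 0.52 (limma adjusted p = 0.361) with overlap, and was at −2.97 with the covariate, while another of its probe sets was at 0.75. None of these changes passed the adjusted threshold. Tbxas1 is also a gene of macrophages and platelets, whose part in its difference was not tested. Ptgfr and Ptgir, the receptors for prostaglandin F2 alpha and prostacyclin, were below the floor on average.

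The interleukin 1 partner list, which holds the related receptors, the caspase that matures the cytokine and the chain from Myd88 to NF-kappaB, had 9 of 21 tested genes higher and 12 lower, with 1 lower and 0 higher at an unadjusted p of 0.05 and a median of −0.035. Nfkbiz, an inducible NF-kappaB cofactor that acts in the induction of Il6, read 1704, 818 and 726 against 1558, 2272 and 2537, a change of −1.04 ± 0.35 (SE, limma adjusted p = 0.288), with its other probe sets at −2.04 and −1.39, and −1.97 with the poly-A spike covariate. Replicate 1 lay inside the ovary-derived range while replicates 2 and 3 lay below it. The kinase adaptors Tab2 and Tab1 stood at 0.42 ± 0.19 and 1.04 ± 0.55 and the kinase Ikbkb at 0.32 ± 0.22 (limma adjusted p from 0.365 to 0.522). Another Tab2 probe set was at 0.028, and the other ones of Ikbkb past the floor ran from −0.11 to 0.30. With the poly-A spike covariate Tab2 was at 0.12 and Tab1 turned to −1.10, and without replicate 1 Tab1 was at 0.46. Ikbkb turned to −0.10 with a pseudocount of 64 and, where a left-out array changed which of its probe sets had the highest mean, to −0.17 without ovary-derived replicate 2 and −0.071 without mesonephros-derived replicate 3. Myd88, the adaptor of the receptor, stood at 0.28 ± 0.32. Casp1, which cleaves the Il1b precursor, and Nlrp3, the sensor that activates it, were below the floor on average, as was Il1r2, the decoy receptor.

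In the interleukin 6 family list, 9 of 16 tested genes were higher and 7 lower, with 2 higher and 0 lower at an unadjusted p of 0.05 and a median of 0.05. Stat3, the transcription factor below Il6st, read 2829.6, 2290.2 and 2417 against 1642, 1609.9 and 2115, apart at 0.49 ± 0.20 (SE, limma adjusted p = 0.351) and at 0.26 with the poly-A spike covariate, although its other probe sets ran from −0.50 to 0.61. Socs3, the Stat3 target that inhibits Il6st, read 6723, 1729 and 1055 against 4809, 5071 and 7094. Its change was −1.26 ± 0.57 (limma adjusted p = 0.367), with its other probe sets at −1.74 and −1.25, and −2.03 without mesonephros-derived replicate 1 (limma adjusted p = 0.018). With the poly-A spike covariate it was −3.18. Socs3 is also on the dissociation list; its replicate 1 lay inside the ovary-derived range, whereas the mean of that list there, 0.70, lay above it. Cntfr, the ciliary neurotrophic factor receptor, stood at 1.14 ± 0.45 (limma adjusted p = 0.34) and at −0.23 with the poly-A spike covariate. Socs1, a further inhibitor, stood at 0.66 ± 0.44 (limma adjusted p = 0.523) and at −0.44 with that covariate. Lifr and Osmr, which pair with Il6st for other ligands, stood at −0.15 ± 0.24 and 0.88 ± 0.82, the second with 7279 in replicate 2 and 1207 at most on the other arrays.

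Genes that interleukin 1 and 6 are known to induce were mostly too dim, with 5 of 17 tested, 2 higher and 3 lower, with 1 higher at an unadjusted p of 0.05 and a median of −0.13. Tnfaip6, a hyaluronan-binding protein of the ovulating follicle, read 444, 113 and 238 in mesonephros-derived samples and 89.9, 52.5 and 41.0 in the ovary-derived ones, all of these below the floor. It was therefore at least 2.14-fold higher, with a fitted change of 1.73 ± 0.55 (SE, limma adjusted p = 0.279). Tnfaip6 passed the floor through the mesonephros-derived arrays alone, and without replicate 1 it was under the floor on average and was not tested. The chemokine Ccl2 went the other way with overlap, at 454, 202 and 161 against 485, 515 and 419, a change of −0.89 ± 0.41 (limma adjusted p = 0.383), or −1.65 with the poly-A spike covariate. Cxcl1, another chemokine, stood at −0.73 ± 0.78 (limma adjusted p = 0.693), 0.37 when mesonephros-derived replicate 3 was left out and −4.23 when the spikes were a covariate. Its other probe sets were at −1.84 and −0.68. Vcam1, an adhesion molecule, stood at 0.11 ± 0.26 (limma adjusted p = 0.878), at −0.071 without that replicate and at 0.85 with the covariate. The list thus held values on both sides of 0.

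The profiles most like those of Il1b and Ptgs2 were found by the root mean square difference over the 6 arrays, after each gene was set against its ovary-derived mean. Nearest to Il1b were Slc26a7, an anion transporter, at 0.46 log2 units, Pianp at 0.46, 2210408K08Rik at 0.51, Wnt9a, a Wnt ligand, at 0.52, and Kcnj3, a potassium channel subunit, at 0.64. All 5 were under the floor in mesonephros-derived replicate 2, as was Il1b. Nearest to Ptgs2 were Pnldc1 at 0.07, Slx4 at 0.13, Dnaja4, a heat shock cochaperone, at 0.14, Ctc1 at 0.16 and Dtnbp1 at 0.16. Shared high and low arrays follow from how these genes were found. Il1b was under the floor on every mesonephros-derived array, and Ptgs2 on every array but mesonephros-derived replicate 1. These likenesses thus rest in large part on signals that are not read as levels.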

How the data were processed

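RNA of 6 samples was read on 1-colour oligonucleotide arrays after amplification of 4 µl of total RNA each, per the labels' protocols, with no concentration stated for any of them. The authors deposited linear intensities, 1 signal per probe set, and MAS5 is named per the submitters' processing notes, with its version not given in the sources used here. Each array had a mean of 500 after trimming 2% at each end. No further normalization was applied. Of 45037 probe sets without the 64 controls, 34945 had 1 symbol, 932 several and 9160 were unnamed here.

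Signals were taken as log2(signal + 16), each gene by its probe set with the highest mean, and genes under the 40th percentile were not tested. The group contrast was fitted with limma, version 3.58.1, under R version 4.3.3 (eBayes with an intensity trend, Benjamini-Hochberg over all genes tested). Changes and SE of member probe sets come from the same model over all 45037. The fit was tested on simulated data. The 6 arrays limit the precision. Members and lists were chosen with earlier results of these data known. Text names all members, the 4 genes of smallest p in each pathway list, the 5 nearest profiles, and the highest markers; a few other genes were named after their values were seen. RefSeq promoters (GRCm38.p6) matched 10 of 10 members, with 13 starts. Alternatives covered the pseudocount, the floor, normalization, probe set choice, the variance model, array weights, the replicate block, the spikes and leaving out each array.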

Additional observations from a re-analysis of the deposited data

How the results depend on the processing

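Alternatives changed 1 choice at a time, and the poly-A spike covariate was added after the data were seen. The count of all genes past the adjusted threshold, 5 in the reported setting, was 3 with a pseudocount of 1, 2 after median centring, 8 when probe sets of a gene were averaged, 0 without the intensity trend, 129 with array weights, 0 with the spike covariate, and 0 to 46 when 1 array was left out (46 without mesonephros-derived replicate 1, 3 without replicate 2, 0 without replicate 3 or any ovary-derived array, with 638 to 2432 at an unadjusted p of 0.05). Unadjusted counts were 1504 without the trend and 315 with the covariate. The member count of 0 became 1 (Il1b) with the mean of probe sets and with array weights, and was 0 to 1 when 1 array was left out, with nothing read from it since members were picked with these values in view. The pathway count of 0 became 2 (Nfkbiz and Socs3) with array weights and was 0 to 1 when 1 array was left out. Same-numbered samples correlated at −0.00048, 0.071 and −0.01 in their deviations from the group means, so the numbers were not taken as pairs. With the replicate block, the count over all genes was 4 and those of members and pathway genes were 0.

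Signs turned for Il1a after quantile normalization (0.085) and median centring (0.057), for Il1rn (−0.40), Ptgs2 (−0.0062) and Vcam1 (−0.0093) with the mean of probe sets, and for Ikbkb with a pseudocount of 64 (−0.10). With the spike covariate they turned for Il1rn (−0.55), Il1rap (1.34), Ptgs2 (−0.22), Tab1 (−1.10), Cntfr (−0.23) and Socs1 (−0.44). When 1 array was left out, values ran from −0.35 to 0.27 for Il1a, −0.18 to 0.37 for Il1rn, −0.24 to 0.77 for Ptgs2, −0.17 to 0.34 for Ikbkb, −1.51 to 0.37 for Cxcl1 and −0.071 to 0.28 for Vcam1. The cause was not tested. Of 434 values of single genes under the alternatives, 400 kept their sign and their call or moved by less than the spread. For pathway genes size did not count, so Socs3 at −1.26 and at −3.18 was taken as kept. No pathway gene was called in the reported setting, and settings of the floor or variance model could not move their changes. This count is therefore not a measure of stability. Signal over the floor limits Il1a, Il1rn, Il6 and Ptgs2, and the size of the Il1b difference is a bound.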
